A study of Mus musculus with 12 samples.

Results

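The transforming growth factor beta (TGF-beta) pathway was followed here through 10 genes: the ligand Tgfb1, the receptors Tgfbr1, Tgfbr2 and Acvrl1, the signalling protein Smad3, the inhibitory Smads Smad6 and Smad7, and the nuclear regulators Ski, Skil and Cited2. They were picked by name for their role in the pathway and are 10 of the 34745 genes in the deposited table. All 10 were found, with 3 to 4651 reads per library. In the coordinates of the table (mm10), Tgfb1 lies at chr7:25687002-25705077, Tgfbr1 at chr4:47353222-47414931, Tgfbr2 at chr9:116087698-116175363, Acvrl1 at chr15:101128522-101145336, Smad3 at chr9:63646767-63757994 and Smad6 at chr9:63953076-64022059. Ski lies at chr4:155154075-155222592, Skil at chr3:31095058-31122577, Cited2 at chr10:17723228-17725673, and Smad7 on chromosome 18. RNA came from the whole bone marrow of the femur of 12 mice of the outbred ICR strain, all male, divided into normal, model, QJSB and leucogen groups of 3. The normal group received saline in place of cyclophosphamide. The model group received cyclophosphamide, an alkylating drug toxic to proliferating cells, with a daily 80 mg/kg on days 5 to 7 of a 1-week course. To the same cyclophosphamide, the QJSB group added a daily 3 g/kg of Qi-Jing-Sheng-Bai granule, a traditional Chinese formula of many compounds. The leucogen group added a daily 20 mg/kg of leucogen, which is used against low white cell counts. Cyclophosphamide was therefore shared by the 3 groups other than normal, and neither drug was given to mice without it. Its columns do not carry the group names apart from Model, but the headings Blank, Positive and Stilbene. Blank was read as normal and Positive as leucogen from the meaning of the words, and Stilbene as QJSB because it was the name left over. Every statement below on a group other than model rests on that reading, which was not checked against the values.

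TGF-beta ligands are secreted in a latent form and act on a pair of serine/threonine kinase receptors. The type II receptor binds the ligand and phosphorylates a type I receptor, which phosphorylates receptor Smads that move to the nucleus with Smad4. The pathway restrains its own output through inhibitory Smads and through co-repressors of the Ski family. In bone marrow it is known for holding blood stem cells in quiescence and for limiting the growth of early progenitors, and it acts on granulocytes, lymphocytes and stromal cells as well.

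By level per transcript length (FPKM as deposited, fragments scaled to transcript length and to the mapped total of the library), the genes spread over a wide range. Cited2, a co-activator partner that binds CBP and p300, stood highest, with a median of 57.6 FPKM over the 12 libraries and a range of 30.5 to 127. Tgfb1 followed with a median of 23.3 FPKM (16.5 to 44.1), and the type I receptor Tgfbr1 with 15.3 FPKM (10.8 to 18.97). The order among these 3 was the same in each group mean except leucogen, where Tgfbr1 had 18.6 FPKM ± 0.474 and Tgfb1 18.3 FPKM ± 1.61 (SD, n = 3), a difference within their spread. The type II receptor Tgfbr2 had a median of 8.08 FPKM (5.67 to 17.9), Smad3 one of 6.39 FPKM (4.90 to 7.29) and Ski one of 5.54 FPKM (2.02 to 10.9). These 3 overlapped in range, as did the next 3, Smad7 at a median of 2.58 FPKM, Skil at 2.44 FPKM and the endothelial type I receptor Acvrl1 (ALK1) at 2.36 FPKM. Smad6 was lowest by far, with a median of 0.154 FPKM, from 3 to 16 reads per library. As a fold from lowest to highest library, the narrowest span belonged to Smad3 and the widest to Acvrl1, which went from 1.02 FPKM in a model library to 10.0 FPKM in a leucogen library.

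**Figure D1:**
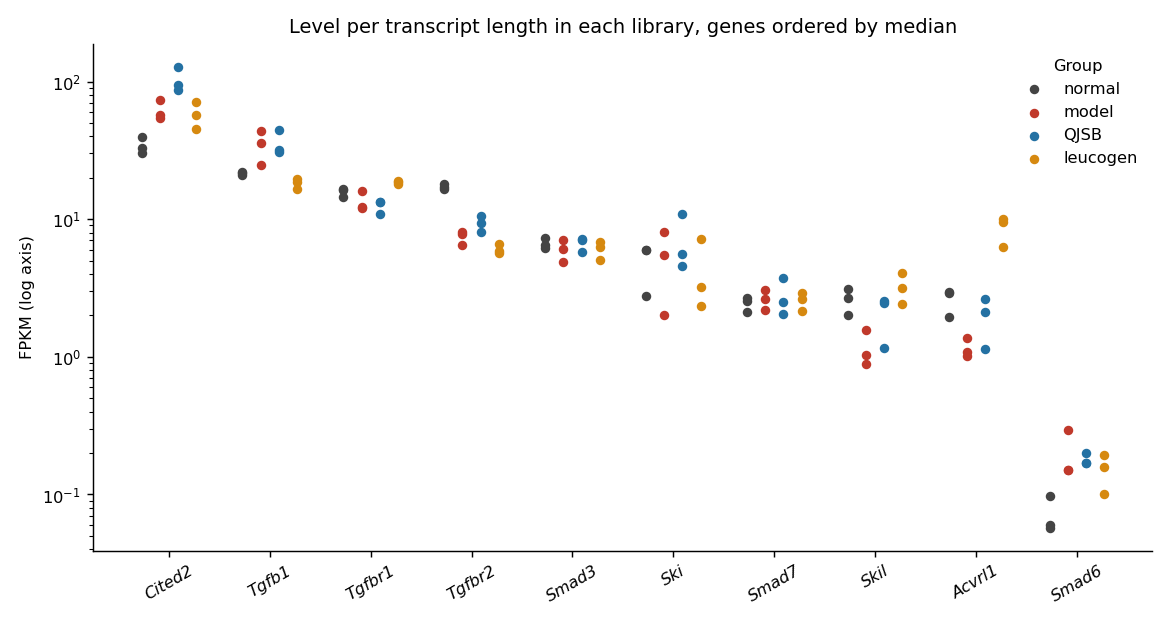
Deposited FPKM (log axis) of the 10 genes, ordered by median, with one point per library and the 4 groups side by side in the order normal, model, QJSB and leucogen. Cited2 lies between 30.5 and 127 FPKM and Smad6 at or below 0.295 FPKM in every library.

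Upstream sequence was matched for 7 of the 10 genes in a RefSeq promoter table for GRCm38.p6, each entry running from 250 bases before the transcription start to 50 after it. No entry was matched for Acvrl1, Skil and Smad7. The promoters of Tgfb1 (chr7:25686752-25687051, plus strand), Tgfbr2 (chr9:116175314-116175613, minus strand) and Cited2 (chr10:17722978-17723277, plus strand) are shown because these genes, among those with an entry, differed between model and normal. Capitals mark matches, on either strand, to the GC box GGGCGG, the CCAAT box CCAAT, the TATA box TATAAA, the E-box CACGTG, the AP-1 site TGACTCA, the cAMP response element TGACGTCA, the palindromic Smad site GTCTAGAC and the CAGA Smad box CAGACA.
Tgfb1: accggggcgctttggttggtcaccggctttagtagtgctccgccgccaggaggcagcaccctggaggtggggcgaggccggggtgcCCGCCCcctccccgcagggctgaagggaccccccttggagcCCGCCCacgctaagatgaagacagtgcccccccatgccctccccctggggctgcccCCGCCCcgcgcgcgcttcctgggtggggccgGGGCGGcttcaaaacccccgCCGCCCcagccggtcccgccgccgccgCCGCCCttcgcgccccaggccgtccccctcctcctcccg
Tgfbr2: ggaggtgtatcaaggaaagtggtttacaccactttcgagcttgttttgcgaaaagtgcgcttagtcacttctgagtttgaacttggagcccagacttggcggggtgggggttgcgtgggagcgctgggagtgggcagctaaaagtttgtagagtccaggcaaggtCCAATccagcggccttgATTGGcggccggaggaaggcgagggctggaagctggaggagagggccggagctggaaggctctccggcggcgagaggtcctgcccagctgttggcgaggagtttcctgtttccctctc
Cited2: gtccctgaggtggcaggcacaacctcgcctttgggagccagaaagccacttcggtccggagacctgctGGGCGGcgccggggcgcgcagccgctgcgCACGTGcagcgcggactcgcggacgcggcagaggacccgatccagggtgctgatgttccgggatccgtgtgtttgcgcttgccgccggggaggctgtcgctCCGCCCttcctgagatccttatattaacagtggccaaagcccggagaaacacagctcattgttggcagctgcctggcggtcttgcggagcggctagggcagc
The Tgfb1 promoter held 6 GC boxes, and the Cited2 promoter held 2 GC boxes and 1 E-box. Tgfbr2 had no GC box and 2 CCAAT boxes. GC boxes occurred in 35.7% of the 32851 promoters of the table, CCAAT boxes in 37.4% and this E-box in 7.15%. The 3 promoters were rich in G and C, at 77.0% for Tgfb1, 59.0% for Tgfbr2 and 66.7% for Cited2, beside a median of 52.7% over the table. No TATA box lay in any of the entries for these 7 genes. The palindromic Smad site, present in 0.213% of all promoters, was found once among them, in Smad6. These are matches of letters and not measured binding.

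The libraries held 11172547 to 18545198 counts, and pairs of mice within a group differed by more than counting error. Levels below are CPM, counts scaled to a common library total with TMM factors, and they serve to compare one gene between libraries. The labelled tissue was checked with lists of marker genes. In normal marrow the summed level was 13480 to 15180 CPM for 10 erythroid markers and 1738 to 1753 CPM for 10 B lineage markers. In the 9 cyclophosphamide-treated mice these sums were 87.2 to 806 CPM and 9.20 to 130 CPM, and the B lineage marker Vpreb3 was at 0 in every QJSB and leucogen library. The sum of 10 late neutrophil markers was 19220 to 22780 CPM in normal, 4781 to 19800 CPM in model, 7276 to 37430 CPM in QJSB and 48750 to 58420 CPM in leucogen. It was led by S100a8 and S100a9, with means of 25000 and 13800 CPM in leucogen and 7260 and 4150 CPM in normal. Against normal, 7 of the 10 markers were called higher in leucogen and 1 lower. Mmp8, Mmp9 and Retnlg had means of 1270, 566 and 958 CPM in leucogen and 1310, 578 and 1230 CPM in normal. Model 1 and QJSB 1 had the lowest late neutrophil sums of their groups. Of 10 markers each, monocyte and macrophage genes summed to 599 to 647 CPM in normal and 330 to 616 CPM in the treated mice, stromal genes to 236 to 240.4 CPM and 100.2 to 261.5 CPM, T and NK genes to 91.2 to 108 CPM and 57.0 to 152 CPM, and megakaryocyte genes to 358 to 795 CPM and 359 to 952 CPM. The monocyte and macrophage markers moved both ways, with 2 called higher and 5 lower in model than in normal. Csf1r had means of 95.8 CPM in normal and 167 CPM in model, and Mrc1 93.7 and 41.5 CPM. The T and NK sum in model was mostly Nkg7, with a mean of 103 CPM there and 20 CPM in normal, while the other 9 markers of that list were called lower in model than in normal. The share of G and C in the transcripts, weighted by counts, also differed, at 47.20% to 47.55% in normal, 47.32% to 48.88% in model, 48.58% to 48.92% in QJSB and 46.39% to 46.96% in leucogen. In bulk marrow, fewer cells of a type and less RNA per cell cannot be told apart.

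**Figure D2:**
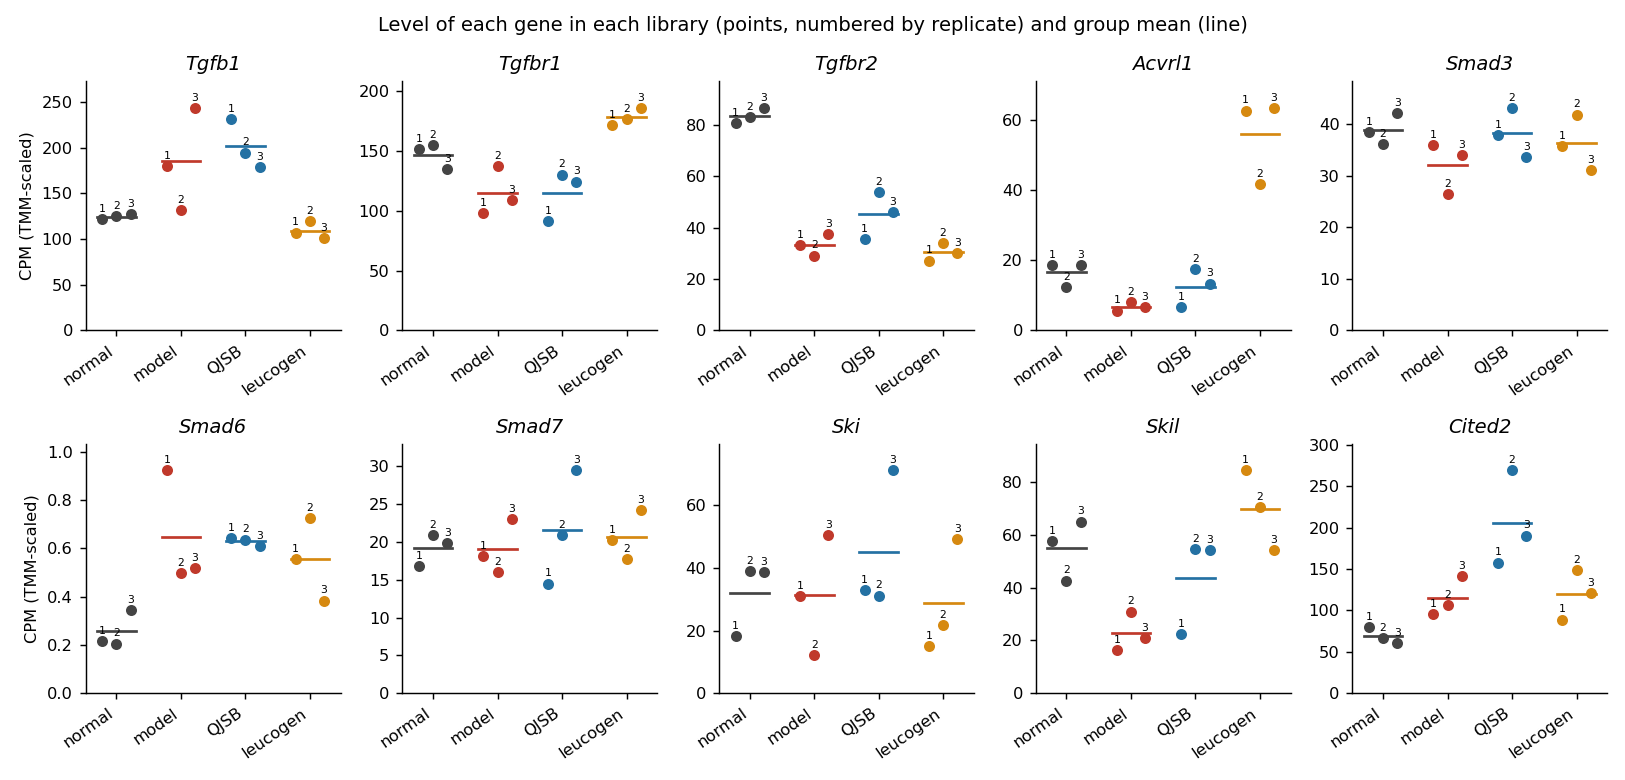
TMM-scaled CPM (linear axes from 0) of each gene in each of the 12 libraries, with points numbered by replicate and a line at the mean of each group of 3. Tgfbr2 is at 80.7 CPM or more in the normal libraries and at 53.8 CPM or less in the other 9, and Acvrl1 is at 41.7 CPM or more in the leucogen libraries and at 18.8 CPM or less in the rest.

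Model was compared with normal to see how cyclophosphamide shifted the pathway. Of the 9 genes tested, 2 rose (Tgfb1 and Cited2) and 3 fell (Tgfbr2, Acvrl1 and Skil) at an adjusted p under 0.05 (edgeR's quasi-likelihood test, Benjamini-Hochberg adjustment over all 14752 genes tested). Over all genes, 19.7% rose and 21.9% fell by this rule, so changes of this kind were common in the marrow. Groups without overlap were common too. All model libraries lay above all normal ones in 26.9% of genes tested, and below them in 28.6%. Smad6 was left out by the filter on low counts. The median log2 fold change over the 9 genes was -0.27.

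The ligand Tgfb1 had 122, 126 and 127 CPM in the normal libraries and 180, 132 and 244 CPM in the model libraries. All model values lay above all normal values, with a wide spread in model, and the log2 fold change was 0.57 ± 0.202 (SE), with an adjusted p of 0.0496. Library GC moved with it: model 2, the model library with the lowest Tgfb1, had a GC share of 47.32%, near normal, while the other 2 model libraries had 48.43% and 48.88%. With the trend of each library on GC removed, the log2 fold change was 0.46, with an adjusted p of 0.0527. The call was also lost when any single library other than model 2 was left out, with adjusted p values of 0.0695 to 0.136. Over all alternatives of processing and left-out libraries, it was kept in 6 of 15.

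Among the receptors, Tgfbr2 had the clearest change. It had 80.7, 83.2 and 86.8 CPM in normal and 33.3, 29.1 and 37.6 CPM in model, so the groups lay far apart. This was a fall by 59.9% (log2 fold change -1.32 ± 0.135, SE, adjusted p = 0.000162 by edgeR). Tgfbr2 carries the ligand-binding step of the receptor pair, and erythroid and B lineage marker sums fell in the same mice, whose part in the result was not tested. Acvrl1, which transmits TGF-beta and BMP signals to Smad1 and Smad5 and is best known from endothelial cells, had 18.8, 12.3 and 18.7 CPM in normal and 5.65, 8.01 and 6.58 CPM in model. It fell by 59.3% (log2 fold change -1.30 ± 0.233, SE, adjusted p = 0.00273). Of 12 endothelial markers, 10 had a positive log2 fold change, 6 were called higher and 1 lower, with a median of 0.73, and their sum, led by Pecam1 (a mean of 107 CPM in normal and 72.6 CPM in model), was 146 to 160.5 CPM in normal and 140.5 to 179 CPM in model. Of 10 late neutrophil markers 4 were called lower and 0 higher, with a median of -1.17. The part of these cell types in the fall of Acvrl1 was not tested. Tgfbr1, the type I partner of Tgfbr2, had a group mean of 147 CPM ± 10.7 in normal and 115 CPM ± 19.96 in model (SD, n = 3), and its groups overlapped (log2 fold change -0.35, adjusted p = 0.0961). Without model 2 it passed, at -0.48 with an adjusted p of 0.0148.

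Of the Smads, none passed. Smad3, the receptor Smad that carries TGF-beta signals, was at 38.4, 36.1 and 42.2 CPM in normal and at 35.9, 26.4 and 33.98 CPM in model (log2 fold change -0.27, adjusted p = 0.193). Every model value of Smad3 lay below every normal value, by a narrow margin. After removal of the GC trend its log2 fold change was -0.38 with an adjusted p of 0.0356. Smad7, which recruits ubiquitin ligases to the type I receptor, had nearly the same mean in both groups, 19.2 CPM ± 2.14 and 19.1 CPM ± 3.59 (SD, n = 3). Smad6, an inhibitor mainly of BMP signals, had 0.206 to 0.345 CPM in normal and 0.496 to 0.923 CPM in model, from at most 5 and 16 reads in a library, and these groups did not overlap. Left out by the filter, it was called in the fit of all 12 libraries (log2 fold change 1.32, adjusted p = 0.0427) but not without a filter (1.33, adjusted p = 0.136), by DESeq2 (1.33, adjusted p = 0.319) or by limma-trend on FPKM (adjusted p = 0.106).

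The nuclear regulators split. Skil (SnoN), a co-repressor that binds Smads and is itself a target of the pathway, had 57.6, 42.6 and 65.0 CPM in normal and 16.4, 30.9 and 20.9 CPM in model. The groups did not overlap, and it fell by 58.6% (log2 fold change -1.27 ± 0.255, SE, adjusted p = 0.00469). Its relative Ski had means of 31.9 CPM ± 11.9 and 31.2 CPM ± 19.2 (SD, n = 3), with single libraries from 12.1 to 50.5 CPM, and a log2 fold change of -0.03 ± 0.524 (SE). A change of Ski of moderate size could not be detected with this spread. Cited2 had 80.1, 66.2 and 60.6 CPM in normal and 95.7, 107 and 141 CPM in model. It rose 1.67-fold (log2 fold change 0.74 ± 0.180, SE, adjusted p = 0.0116), and every model library lay above every normal one. Without normal 2 its adjusted p was 0.0505, and without normal 2 only 3 of the 5 genes were called.

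**Figure D3:**
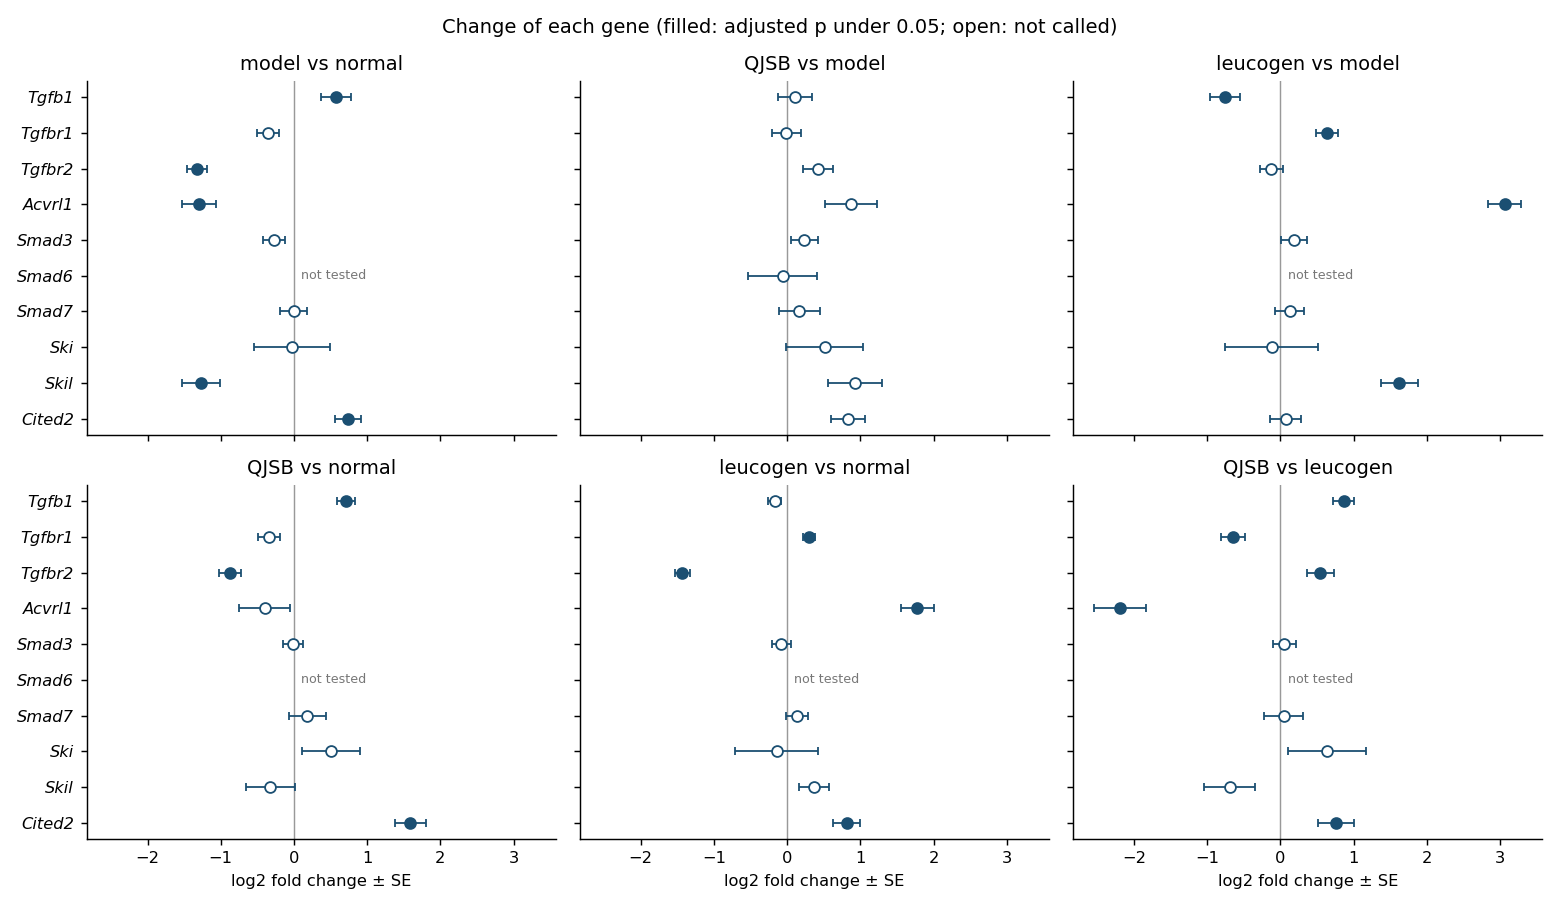
Log2 fold change with its standard error for each gene in the 6 comparisons of groups, from edgeR, with filled points for an adjusted p under 0.05 and open points for genes tested but not called. Acvrl1 lies at -1.30 for model against normal and at 3.06 for leucogen against model, while Smad3 and Smad7 stay between -0.27 and 0.24 throughout.

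QJSB was compared with model, the contrast in which the study looked for effects of the granule. None of the 10 genes passed the adjusted threshold, and over all 14486 genes 0% rose and 0% fell by edgeR. At an unadjusted P under 0.05 edgeR gave 723 genes, 4.99% of those tested, about the share this threshold gives when no gene differs. DESeq2 called 8 genes after adjustment. Same-numbered QJSB and model libraries deviated together, and a fit with the replicate block called 18 genes, of which 0 were among the 10. At the cutoff used by the study, a change of over 1.5-fold with an unadjusted P under 0.05, 3 of the 10 genes passed, all higher in QJSB, beside 1.68% of all genes higher and 1.4% lower. These 3 were Acvrl1, Skil and Cited2, which are in the study's own list of top genes for this contrast, made from the same libraries, so that their passing is not independent evidence.

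Cited2 had the smallest unadjusted P of the 10. Its level was 158, 269 and 190 CPM in QJSB, above the 95.7 to 141 CPM of model in each library (log2 fold change 0.83 ± 0.234, SE). Such separation upward occurred in 4.5% of all genes tested. Acvrl1 had 6.60, 17.5 and 13.4 CPM in QJSB, with the first inside the range of model and the other two above it (0.87 ± 0.356 on the log2 scale). Skil behaved alike, with 22.3 CPM in QJSB 1 and 54.5 and 54.1 CPM in the other two (0.92 ± 0.372 on the log2 scale). The adjusted p by edgeR was 0.767 for each of the 3. QJSB 1 was thus low for all 3 genes, and it also had the lowest late neutrophil sum of its group, 7276 CPM against 37430 and 27793 CPM. In model the lowest late neutrophil sum, 4781 CPM in model 1, went with the lowest Acvrl1, Skil and Cited2. Between groups Cited2 went the other way. The mean sum was 21540 CPM in normal and 12110 CPM in model, where Acvrl1 and Skil were lower but Cited2 was higher. The part of neutrophil content in these values was not tested.

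For the other genes the QJSB and model libraries overlapped. Tgfbr2 had 35.7, 53.8 and 46.1 CPM in QJSB (log2 fold change 0.42 ± 0.199, SE, adjusted p = 0.767). Tgfb1 had 232, 195 and 179 CPM, within the range of model, at a log2 fold change of 0.11 ± 0.230 (SE). Log2 fold changes of Tgfbr1, Smad3, Smad6 and Smad7 lay between -0.06 and 0.24, with standard errors of 0.186 to 0.469, the largest for Smad6 at 10 to 12 reads per QJSB library. Ski had 71.1 CPM in QJSB 3 and 32.9 and 31.1 CPM in the other two, and a log2 fold change of 0.51 ± 0.529 (SE). Ski was higher in QJSB in each of the 3 same-numbered pairs, and with the replicate block its log2 fold change was 0.62 (adjusted p = 0.477). The sign was positive for 8 of the 10 genes, with a median log2 fold change of 0.33, beside -0.02 over all genes tested. The share of all genes with a positive sign was not counted. The genes did not vary independently, as QJSB 1 had the lowest Tgfbr2, Acvrl1, Skil and Cited2 of its group.

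Leucogen was compared with model as the reference drug. Of the 9 genes tested, 3 rose (Acvrl1, Skil and Tgfbr1) and 1 fell (Tgfb1), beside 13.8% of the 14184 genes that rose and 13.3% that fell. All leucogen libraries lay above all model libraries in 22.2% of genes tested, and below them in 23.8%. Acvrl1, which is also in the study's own list of top genes for this contrast, rose most. Its level was 62.7, 41.7 and 63.5 CPM in leucogen and 5.65 to 8.01 CPM in model, an 8.35-fold difference with no overlap (log2 fold change 3.06 ± 0.226, SE, adjusted p = 0.000946). Under the alternatives of processing and with each library left out, the log2 fold change of Acvrl1 stayed between 2.77 and 3.34 and passed each time. The sum of 12 endothelial markers was 107 to 146 CPM in leucogen and 140.5 to 179 CPM in model, so it did not rise with Acvrl1, and 0 of the 12 were called. The late neutrophil sum did rise with it, and 7 of its 10 markers were called. Within leucogen the lowest sum, 48746 CPM in leucogen 1, went with 62.7 CPM of Acvrl1. Leucogen 2 had the lowest Acvrl1 of its group, 41.7 CPM, at a sum of 57020 CPM. The part of late neutrophil content in the result was not tested. An antisense gene, Gm16031, overlaps Acvrl1 on the opposite strand, and the counting program is not stated, so reads of the antisense gene cannot be fully set aside.

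Skil rose 3.08-fold, from 16.4 to 30.9 CPM in model to 84.3, 70.4 and 54.3 CPM in leucogen (log2 fold change 1.62 ± 0.253, SE, adjusted p = 0.00428). The 2 groups were well separated, and the call held with each library left out and with the GC trend removed (1.36, adjusted p = 0.007). Tgfbr1 had 171, 176 and 186 CPM in leucogen, above the 98.1 to 137 CPM of model (log2 fold change 0.64 ± 0.153, SE, adjusted p = 0.0166). Skil and Tgfbr1 have the lowest GC content of the 10 genes, 41.0% in the longest transcript of each, and the leucogen libraries had the lowest GC share. With the GC trend removed Tgfbr1 was at 0.35 with an adjusted p of 0.0641, and without leucogen 1 or leucogen 3 it was also lost (adjusted p = 0.0518 and 0.0806). Tgfb1 went the other way, with 107, 120 and 101 CPM in leucogen, all below the lowest model library (log2 fold change -0.76 ± 0.208, SE, adjusted p = 0.0275). It stayed called with the GC trend removed (-0.55, adjusted p = 0.0477) and was lost without model 1, without model 3 and without each leucogen library in turn (adjusted p = 0.0537 to 0.114).

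The remaining genes overlapped between leucogen and model. Tgfbr2 had 27.2 to 34.1 CPM in leucogen, at a log2 fold change of -0.12 ± 0.159 (SE). Cited2 had a mean of 120 CPM ± 30.2 in leucogen (SD, n = 3) and a log2 fold change of 0.07 ± 0.212 (SE). Smad3 and Smad7 had log2 fold changes of 0.18 and 0.13, and Ski one of -0.12 ± 0.636 (SE), with 49.2 CPM in leucogen 3 and 15.1 and 21.8 CPM in the other two.

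**Figure D4:**
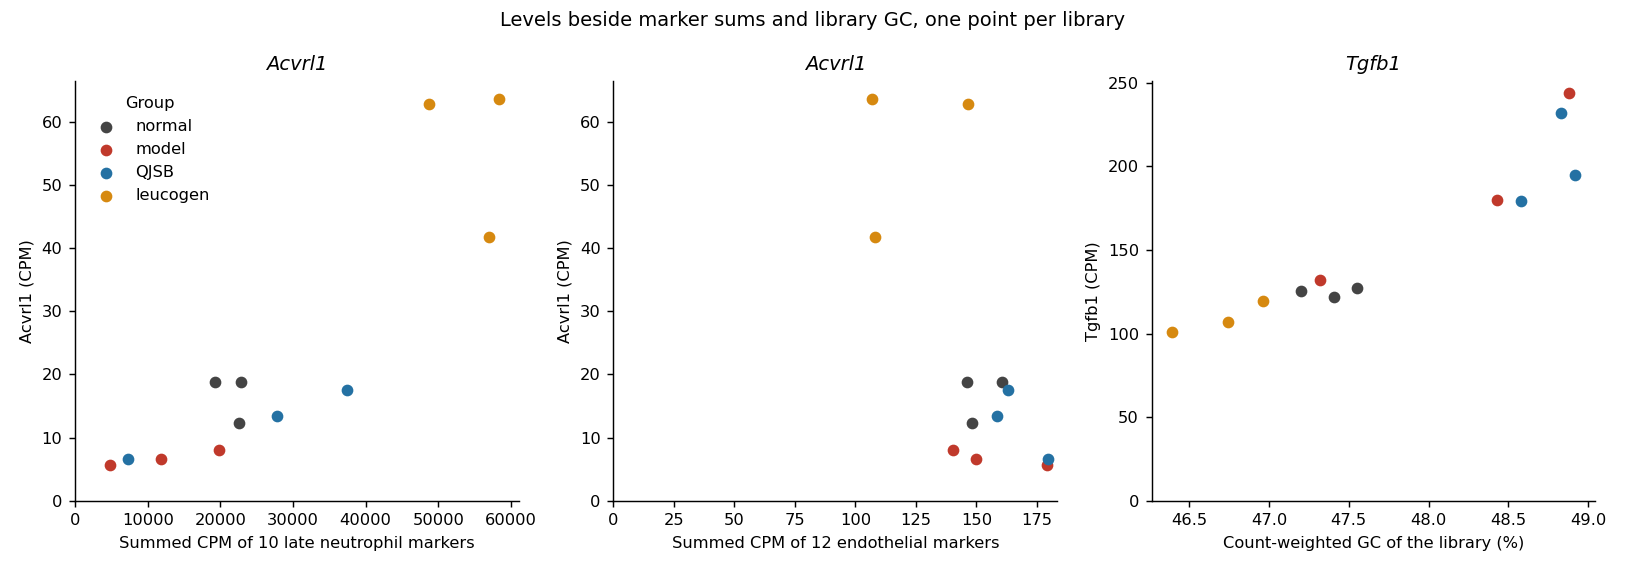
CPM of Acvrl1 against the summed CPM of 10 late neutrophil markers (left) and of 12 endothelial markers (middle), and CPM of Tgfb1 against the count-weighted GC share of the library in percent (right), with one point per library coloured by group. The leucogen libraries have late neutrophil sums of 48750 CPM and more and the 3 highest Acvrl1 levels, their endothelial sums are at 146 CPM and below, and Tgfb1 is lowest in the leucogen libraries, where GC is at most 46.96%.

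Both drug groups were also set against normal, to see which genes stood apart from mice without cyclophosphamide. These comparisons share their normal libraries with model against normal. In QJSB, 2 of the 9 genes tested were higher (Tgfb1 and Cited2) and 1 was lower (Tgfbr2), beside 22.1% of 14817 genes higher and 23.2% lower. Cited2 was 3.01-fold higher (log2 fold change 1.59 ± 0.211, SE, adjusted p = 0.000843) and Tgfb1 was 1.63-fold higher (0.71 ± 0.125 on the log2 scale, adjusted p = 0.00309). Tgfbr2 was lower by 45.5%, at a log2 fold change of -0.87 ± 0.156 (SE, adjusted p = 0.0032). Smad6, left out by the filter, was called higher in the fit of all 12 libraries (1.27 on the log2 scale, adjusted p = 0.0456) and not by the other fits that tested it (adjusted p = 0.0705 to 0.268). Acvrl1 and Skil, which were lower in model than in normal, had log2 fold changes of -0.40 ± 0.347 and -0.32 ± 0.332 (SE) in QJSB, and both overlapped with normal. That does not show equal levels, since QJSB 1 alone lay below all normal libraries for both genes.

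In leucogen, 3 of the 9 genes were higher than in normal (Acvrl1, Cited2 and Tgfbr1) and 1 was lower (Tgfbr2), beside 25.7% of 14637 genes higher and 26.6% lower. Tgfbr2 was lower by 63.0% (log2 fold change -1.43 ± 0.104, SE, adjusted p = 2.5e-06), so its level was below normal in each of the 3 cyclophosphamide-treated groups. Acvrl1 was 3.42-fold higher than in normal (log2 fold change 1.77 ± 0.225, SE, adjusted p = 0.000329), against a fall in model. Cited2 was 1.76-fold higher (0.82 ± 0.186 on the log2 scale, adjusted p = 0.00706). Tgfbr1 was 1.23-fold higher (adjusted p = 0.0156), and the call was lost with the GC trend removed (adjusted p = 0.116), in the fit of all 12 libraries (adjusted p = 0.180) and without normal 3 or leucogen 3 (adjusted p = 0.0655 and 0.0707). Skil was at 0.36 ± 0.203 on the log2 scale (adjusted p = 0.172), with leucogen libraries inside and above the normal range.

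QJSB was compared directly with leucogen, the other cyclophosphamide-treated drug group, at the doses given above. Of the 9 genes tested, 3 were higher in QJSB (Tgfb1, Tgfbr2 and Cited2) and 2 were lower (Acvrl1 and Tgfbr1), beside 15.5% of 14266 genes higher and 13.8% lower. All QJSB libraries lay above all leucogen libraries in 25.6% of genes tested, and below them in 23.2%. Acvrl1 differed most, with no overlap and a log2 fold change of -2.19 ± 0.354 (SE, adjusted p = 0.00549). Tgfb1 was 1.82-fold higher in QJSB (0.86 ± 0.142 on the log2 scale, adjusted p = 0.00485). These 2 calls were kept when the GC trend was removed, at adjusted p values of 0.0103 and 0.023, while Tgfbr1 (-0.18), Tgfbr2 (0.42) and Cited2 (0.41) were then lost. As first fitted, Tgfbr1 was at -0.65 (adjusted p = 0.0189), Tgfbr2 at 0.55 (adjusted p = 0.0489) and Cited2 at 0.76 (adjusted p = 0.0456), each a log2 fold change. Over 16 alternatives of processing and left-out libraries, the call was kept in 11 for Tgfbr1, 7 for Tgfbr2 and 9 for Cited2. Libraries of the same number also deviated together here, and when that number entered the fit as a replicate block Ski was also called, at a log2 fold change of 0.70 and an adjusted p of 0.0221. With the block and the GC trend removed together Ski was at 0.32 with an adjusted p of 0.229. Without leucogen 1 or without leucogen 3, 2 genes were called.

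Ratios of FPKM within a library do not depend on the scaling between libraries, though they can move with library GC where the genes differ in GC content. Tgfbr1 stood at 0.922 ± 0.0951 times the level of Tgfbr2 in normal, 1.84 ± 0.537 times in model, 1.34 ± 0.0715 times in QJSB and 3.08 ± 0.318 times in leucogen (SD, n = 3). The ranges were 0.813 to 0.982, 1.52 to 2.46, 1.27 to 1.41 and 2.71 to 3.29, so no group overlapped another. The longest transcripts of Tgfbr1 and Tgfbr2 hold 41.0% and 49.6% GC, and with the GC trend removed the log2 fold changes between QJSB and leucogen were -0.18 for Tgfbr1 and 0.42 for Tgfbr2, against -0.65 and 0.55 before. Each exact two-sided permutation test on the log ratio gave p = 0.1, the smallest that 3 libraries against 3 allow. Acvrl1 stood at 0.0860 ± 0.00201 times the level of Tgfbr1 in model, 0.167 ± 0.0449 times in normal, 0.154 ± 0.0457 times in QJSB and 0.461 ± 0.101 times in leucogen. Leucogen lay above every other group in this ratio. The inhibitory Smad7 stood at 0.367 to 0.442 times the level of Smad3 in the 4 group means, with single libraries from 0.283 to 0.650, and a difference between groups was not detectable with this spread.

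A list of 67 other genes of the pathway gave the surroundings of these 10. In model against normal, 59 of them were tested, 10 rose and 9 fell, beside the 19.7% and 21.9% of all genes that did, with a median log2 fold change of -0.06. By role, 1 of 6 ligands rose and 1 fell, 2 of 9 genes of latency and activation rose and 1 fell, 2 of 8 receptors and co-receptors rose, and 1 of 4 Smads rose. Among 11 genes listed as inhibitors and ubiquitin ligases, a list that also holds the deubiquitinase Usp15, 1 rose and 4 fell. Among 7 co-repressors and co-activators 2 fell, and among 14 target genes 3 rose and 1 fell. The largest rises were those of Tgfbi, a secreted matrix protein named for its induction by TGF-beta (log2 fold change 1.73 ± 0.148, SE, adjusted p = 7.15e-05), of fibronectin, Fn1 (1.71 ± 0.375), and of Smad1, a receptor Smad of the BMP branch (1.34 ± 0.179). Tgfbi went from 54.6 CPM ± 3.36 in normal to 181 CPM ± 29.7 in model (SD, n = 3). The largest falls were those of the ligand Gdf11 (-3.82 ± 0.410), the BMP target Id3 (-2.67 ± 0.489) and the transcription factor Foxo3, a Smad partner (-1.84 ± 0.151). Gdf11 went from 8.00 CPM ± 1.59 to 0.559 CPM ± 0.296, and Foxo3 from 393 CPM ± 30.1 to 109 CPM ± 18.1. Id3 was at -3.29 without model 1.

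In QJSB against model, 0 of the 59 tested passed after adjustment and 1, Itgav, passed the study's cutoff. The 3 with the smallest P were Itgav, an integrin chain that helps to free latent TGF-beta (log2 fold change 0.67 ± 0.242), the protease Furin (0.52 ± 0.225) and the co-activator Crebbp (0.34 ± 0.153), all at an adjusted p of 0.767. The median log2 fold change over the list was 0.14, beside -0.02 over all genes tested.

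In leucogen against model, 9 of 57 rose and 6 fell, beside 13.8% and 13.3% of all genes. Of 11 genes listed as inhibitors and ubiquitin ligases 5 rose (Smurf1, Smurf2, Wwp1, Rnf111 and the deubiquitinase Usp15) and Strap fell. These 5 are not all inhibitors of the pathway. Of 14 target genes 0 rose and 4 fell (Cdkn1a, Tgfbi, Col1a1 and Fn1). The largest rises were those of the BMP receptor Bmpr1a (log2 fold change 2.05 ± 0.370), the activin subunit Inhba (1.85 ± 0.527) and Itgav (1.37 ± 0.133). Bmpr1a went from 8.27 CPM ± 4.24 in model to 34.01 CPM ± 8.22 in leucogen, and Itgav from 39.5 CPM ± 1.46 to 101 CPM ± 7.10 (SD, n = 3). The largest falls were those of the collagen Col1a1 (-2.77 ± 0.623), Fn1 (-1.37 ± 0.390) and Tgfbi (-1.26 ± 0.149), all SE. Tgfbi had 75.2 CPM ± 3.31 in leucogen (SD, n = 3), with no overlap with model. Without leucogen 3 only 3 of the 57 were called, and 4 without leucogen 1. Inhba, Col1a1 and Fn1 were among the calls lost, with adjusted p values of 0.124, 0.0954 and 0.0869 without leucogen 3. Without model 1, which had the highest Col1a1 and Fn1 of its group, their log2 fold changes were -1.77 and -0.77.

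**Figure D5:**
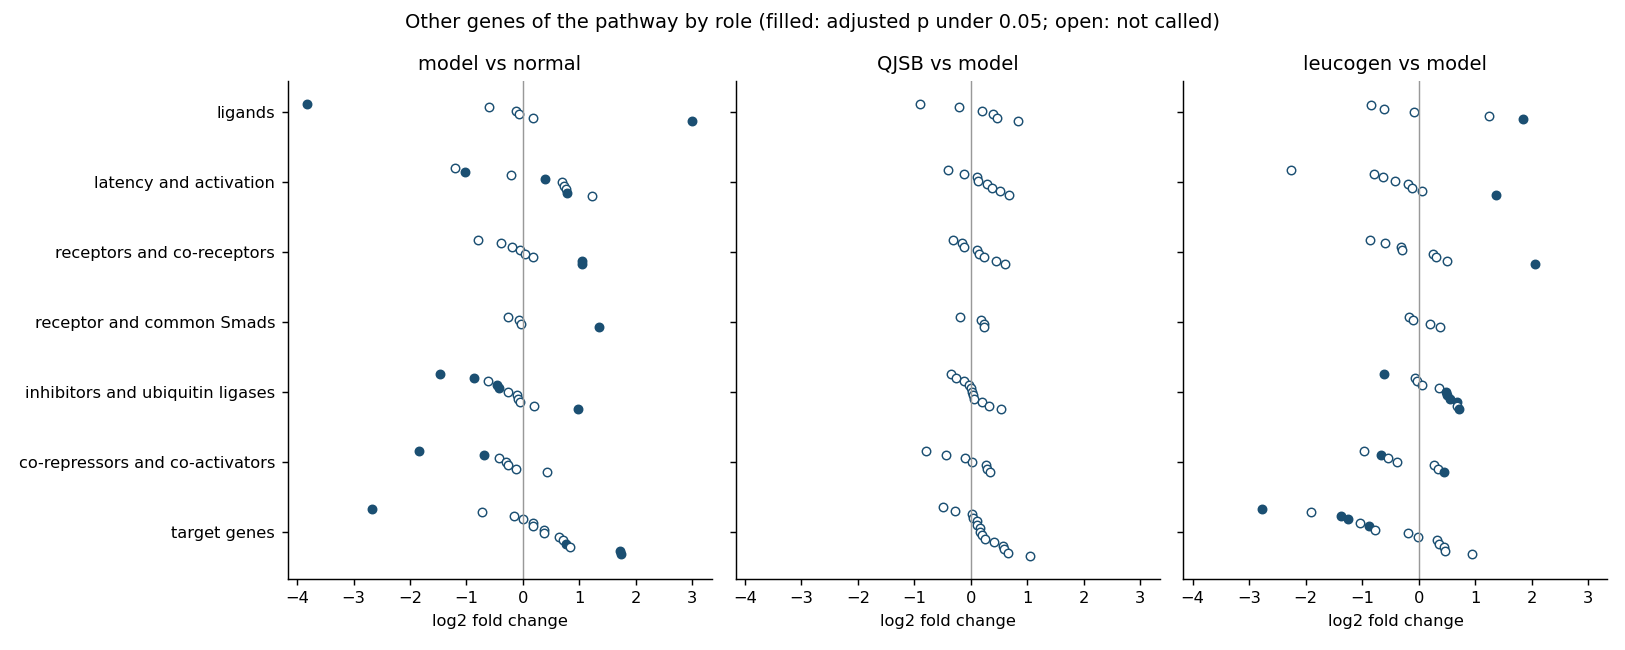
Log2 fold change of the other pathway genes tested, grouped by role, for model against normal, QJSB against model and leucogen against model, with filled points for an adjusted p under 0.05 by edgeR and open points for genes not called. Model against normal has 19 filled points, QJSB against model has 0 and leucogen against model has 15.

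Against normal, 11 of 59 were higher and 8 lower in QJSB, beside 22.1% and 23.2% of all genes, and 18 were higher and 17 lower in leucogen, beside 25.7% and 26.6%. In QJSB the largest differences upward were Fn1 (1.94 ± 0.124), Tgfbi (1.78 ± 0.106) and Smad1 (1.599 ± 0.153), and those downward Gdf11 (-3.99 ± 0.737), Id3 (-2.23 ± 0.334) and the deubiquitinase Usp15 (-1.56 ± 0.120), each as log2 fold change with SE. Leucogen had Ctgf (1.595 ± 0.429), Tgfb3 (1.44 ± 0.435) and the activin receptor Acvr1b (1.36 ± 0.110) highest, and Gdf11 (-3.61 ± 0.413), Id3 (-2.84 ± 0.402) and Foxo3 (-2.22 ± 0.122) lowest. Ctgf and Tgfb3 rested on low levels, with mean values of 3.78 and 1.83 CPM in leucogen. Gdf11 was at -5.20 in QJSB without QJSB 1 and at -4.36 in leucogen without leucogen 3. Gdf11, Id3 and Usp15 were called below normal in model, QJSB and leucogen alike, from different fits that share the normal libraries. Foxo3, not among the largest falls named for QJSB, had 127 to 145 CPM there against 374 to 428 CPM in normal. Smad1 had 34.8 to 49.4 CPM in model and QJSB against 12.96 to 17.8 CPM in normal.

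Between QJSB and leucogen, 10 of 59 were higher in QJSB and 7 were lower, beside 15.5% and 13.8% of all genes. Of 15 target genes 5 were higher (Cdkn1a, Tgfbi, Junb, Col1a1 and Fn1) and 0 were lower. Of 11 genes listed as inhibitors and ubiquitin ligases 4 were lower (Smurf2, Wwp1, Rnf111 and the deubiquitinase Usp15), not all of them inhibitors. Col1a1 (log2 fold change 3.02 ± 0.838), Fn1 (1.57 ± 0.187) and Tgfbi (1.28 ± 0.120) had the largest differences upward. Bmpr1a (-1.44 ± 0.425), Usp15 (-0.84 ± 0.148) and the activin receptor Acvr2a (-0.56 ± 0.162) had the largest downward, all SE. Over 16 alternatives of processing and left-out libraries, the call was kept in 9 for Bmpr1a, 16 for Usp15 and 6 for Acvr2a. Col1a1 rested on QJSB 1, as its QJSB values ran from 65.7 to 424 CPM, and its log2 fold change without that library was 1.54. With the GC trend removed 5 of the 59 were called, and Acvr2a was then at 0.006 on the log2 scale. Without leucogen 3, 3 were called.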

How the data were processed

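The 10 genes, the other gene lists and the tests were chosen with earlier results of these data known, so that no list counts as independent evidence. Total RNA of femoral bone marrow from 12 mice was depleted of ribosomal RNA and made into strand-specific libraries. Per the study's methods, Seqtk served to filter reads and HISAT2 to map them to GRCm38.p4 (mm10), while the counting program and the annotation are not given in the sources used here. The deposited read counts are whole numbers without normalization for 34745 genes, and the deposited FPKM values were computed by the authors from fragments, transcript length and mapped total. Of the columns of counts and FPKM, 0 were left unused. The assignment of the columns headed Blank, Positive and Stilbene rests on their names and on elimination.

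Counts were tested with edgeR 4.0.16 in R 4.3.3 (filterByExpr, TMM, robust glmQLFit, glmQLFTest) in a fit of the 6 libraries of each of 6 comparisons, and a gene was called at a Benjamini-Hochberg adjusted p under 0.05 over all genes tested. The standard error is the log2 fold change divided by the square root of the F statistic. Displayed CPM used TMM factors over all 12 libraries. Totals of 11172547 to 18545198 counts per library set the counting error, and the standard errors also hold the spread between the mice of a group. Every gene of the 10 is named. From the list of 67 other pathway genes, the 3 largest rises and the 3 largest falls called with a mean of at least 1 CPM are named per comparison, or the 3 with the smallest P where none was called, and called genes of a role are listed where the text counts them. Genes listed by role and the calls named by library were chosen after their values were seen.

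In simulated counts for model against normal, edgeR ran on 14638 genes and recovered 167 of 200 changed genes with 10 false calls. Every simulated gene had the same relative spread between mice in both groups, and only genes with many reads were changed. In the data, model mice differed from one another more than normal mice did. The simulation thus does not give the error rates of the tests above. Same-numbered libraries were taken as paired where all 3 correlations of their deviations from the group means, over 13843 genes, were above 0.1. This held for QJSB and model (0.498, 0.167 and 0.107) and for QJSB and leucogen (0.211, 0.177 and 0.140), from the correlations alone, since the labels state no shared batch. Alternatives were DESeq2 1.42.0, its size factors in edgeR, total counts, no filter, a minimum of 10 counts per library, a joint fit of the 12 libraries, limma-trend (limma 3.58.1) on log2(FPKM + 0.1) where the mean FPKM reached 0.1, the replicate number as a block, and each library left out. Removing each library's trend on transcript GC, over 20 bins of 34267 genes with a GENCODE M21 transcript, alone and with the block, was chosen after seeing the data. Promoters came from RefSeq (GRCm38.p6).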

Additional observations from a re-analysis of the deposited data

How the results depend on the processing

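Log2 fold changes of single genes kept their direction and their side of the threshold in 1189 of the values recomputed, lost the call in 91, gained it in 4 and changed sign in 57. No gene called as reported changed sign except Acvr2a. With the GC trend of each library removed, the signs that turned were those of Tgfbr1 (0.19) in QJSB against model, Ski (0.22) in leucogen against model, Tgfbr1 (0.0038), Smad7 (-0.065) and Skil (0.0080) in QJSB against normal, Smad3 (0.017) and Ski (0.030) in leucogen against normal, and Smad3 (-0.24), Smad7 (-0.37) and Acvr2a (0.0060) in QJSB against leucogen. The replicate block with the GC trend removed turned Tgfbr1 (0.17) and Smad7 (-0.0063) in QJSB against model and Smad3 (-0.24) and Smad7 (-0.42) in QJSB against leucogen, and the replicate block alone turned Smad7 (-0.0051) there. Total counts turned Smad7 (0.11) and Ski (0.084) in model against normal and Smad7 (-0.044) and Cited2 (-0.10) in leucogen against model. Limma-trend on FPKM turned Smad7 (0.10) in model against normal and Smad7 (-0.039) and Cited2 (-0.11) in leucogen against model. DESeq2 (0.0033) and the fit of all 12 libraries (0.0047) turned Tgfbr1 in QJSB against model, and no filter turned Smad7 (0.0062) in model against normal.

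With each library left out, log2 fold changes that crossed 0 ranged as follows. In model against normal, Ski ranged from -0.55 to 0.37 and Smad7 from -0.16 to 0.12. In QJSB against model, Tgfb1 ranged from -0.082 to 0.36, Tgfbr1 from -0.11 to 0.14, Smad6 from -0.21 to 0.29 and Smad7 from -0.12 to 0.39. In leucogen against model, Cited2 ranged from -0.11 to 0.27, Ski from -0.76 to 0.44 and Smad7 from -0.0013 to 0.31. Against normal, Smad3 ranged from -0.10 to 0.078 and Smad7 from -0.10 to 0.40 in QJSB, and Ski from -0.78 to 0.16, Smad3 from -0.21 to 0.0058 and Smad7 from -0.0068 to 0.22 in leucogen. In QJSB against leucogen, Smad3 ranged from -0.036 to 0.17 and Smad7 from -0.26 to 0.26. The cause was not tested.

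In QJSB against model, the study's cutoff gave 3 of the 10 genes, 1 of the other pathway genes and 446 genes in all, DESeq2 called 8 genes in all, the replicate block 18, and the replicate block with the GC trend removed 2, against 0 in edgeR. Leaving out a library gave 0 to 3 genes, the 3 without QJSB 1. In model against normal, 3 to 6 of the 10 genes were called with a library left out. In leucogen against model, with a library left out, 2 to 4 of the 10, 3 to 18 of the other pathway genes and 1239 to 4589 genes in all were called, and the replicate block called 9 of the other pathway genes. In QJSB against normal the other pathway genes called ran from 12, without normal 3, to 30, without QJSB 1. In QJSB against leucogen, DESeq2 size factors gave 3 of the 10, removing the GC trend gave 2 of the 10, 5 of the others and 2132 in all, and the replicate block with the GC trend removed gave 2, 7 and 2275. Without a filter 10 of the others were called there, and leaving out a library gave 2 to 5 of the 10, 3 to 20 of the others and 1545 to 4768 in all. Not every call lost under an alternative is named. The replicate block turned the calls of Tgfb1 in model against normal (0.53, adjusted p = 0.053) and in leucogen against model (-0.72, adjusted p = 0.055). In these comparisons same-numbered libraries did not deviate together (lowest correlations -0.0197 and -0.147). The block also turned the calls of Inhba in leucogen against model and Col1a1 in QJSB against leucogen. Smad6, at 3 to 16 reads per library, passed the filter in QJSB against model alone. Where other fits tested it, the fit of all 12 libraries called it in model against normal and in QJSB against normal, and no other fit called it.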

Other observations

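Ski and Smad7, an inhibitor in the nucleus and one at the receptor, had their highest level in the third replicate of each cyclophosphamide-treated group. Ski stood at 50.5 CPM in model 3, 71.1 CPM in QJSB 3 and 49.2 CPM in leucogen 3, while the other 6 treated libraries ran from 12.1 to 32.9 CPM. Smad7 stood at 23.0 CPM in model 3, 29.5 CPM in QJSB 3 and 24.2 CPM in leucogen 3. In leucogen its reads were nearly equal, at 255, 245 and 252, so its order there rested on the scaling to library size. Among the normal libraries the highest values were those of normal 2 for both genes, 38.9 CPM for Ski and 20.9 CPM for Smad7. The labels give no batch that joins the third replicates, and this was seen in the values and not tested. The share of all genes with the same order was not counted.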
